A study of Rattus norvegicus with 6 samples.

Results

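Adipoq, Lep, Retn and Cfd encode adiponectin, leptin, resistin and adipsin, proteins that fat cells release into the blood. They were taken by name from a table of 24988 rat genes, where all 4 were present, and all 4 were among the 16522 genes kept by the filter on low counts. Total RNA of aneurysmal abdominal aortas of Sprague-Dawley rats was sequenced in 6 libraries. The untreated group held 3 libraries of aneurysms without treatment, and the treated group held 3 libraries of aneurysms treated with NP, a targeted nanotherapy by the series title. Every library came from an aneurysm, so no healthy aorta was compared. The age of the rats, the way the aneurysm was made and the composition of NP were not found in the labels, and the labels do not say that each library came from a separate rat. P-values therefore measure the spread between these libraries, which may be partly technical.

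The outer coat of the aorta lies in perivascular fat, and fat cells there secrete adipokines next to the vessel wall. Adiponectin signals through the receptors AdipoR1 and AdipoR2, and T-cadherin binds it on vascular cells. Leptin acts through the leptin receptor and the kinase JAK2, and reports the size of fat stores to the brain. Resistin is made mainly by fat cells in mice and rats, and by macrophages in people. Adipsin, also called complement factor D, is the serine protease that cleaves factor B and so starts the alternative complement pathway.

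The tissue was aorta with some fat. The smooth muscle list, with Myh11, Acta2 and 6 other contractile genes, was detected in full, with a summed level of 2492 to 5026 CPM (CPM are counts scaled to a common library size, here with TMM factors) over the 6 libraries. All 12 genes of a fat cell list without adipokines, among them Plin1, Cidec, Lipe and Pparg, passed the filter. Of 9 brown fat genes 6 passed, while Ucp1, the uncoupling protein that defines brown fat, had at most 8 counts in any library and Elovl3 had 0 counts in all of them. Total counts per library ran from 26100468 to 30939002, of which mitochondrial genes made up 8.54% to 13.9%.

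On the FPKM scale of the authors, which divides counts by gene length and library size, the order was Cfd, Adipoq, Retn and Lep in each of the 6 libraries. Cfd stood at 553, 341 and 553 FPKM in untreated replicates 1, 2 and 3, and at 148, 265 and 264 FPKM in treated replicates 1, 2 and 3. Its rank among all genes of a library ran from 120 to 207 in untreated and from 221 to 491 in treated aortas, so adipsin was an abundant transcript of both groups. Adipoq stood at 130, 82.7 and 70.4 FPKM untreated and at 6.61, 33.6 and 34.0 FPKM treated. Retn stood at 29.3, 18.3 and 16.3 FPKM untreated and at 2.56, 7.60 and 6.96 FPKM treated. Lep was far lower, at 3.14, 1.15 and 0.741 FPKM untreated and 0.0465, 1.64 and 0.415 FPKM treated. In untreated aortas no neighbours in this order overlapped. In treated aortas the ranges of Adipoq and Retn overlapped across libraries, although Adipoq was above Retn inside each library.

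The regions before the start sites are shown because Adipoq, Retn and Cfd were all lower in treated aortas while Lep had overlapping groups. All 4 genes matched by symbol to the RefSeq promoter table of GRCr8, and the 250 bases before each start site of that table are printed 5′ to 3′ on the strand of the gene. The build used for the deposited counts is not stated in the labels. The windows are chr11:91240170-91240419 on the minus strand for Adipoq, chr12:6508524-6508773 on the plus strand for Retn, chr7:10465497-10465746 on the minus strand for Cfd and chr4:58626288-58626537 on the plus strand for Lep. The RefSeq gene spans of Adipoq, Retn and Lep reach into these windows, so other start sites are annotated there. Capitals mark matches, on either strand, to the motifs spelled out after the sequences.
Adipoq: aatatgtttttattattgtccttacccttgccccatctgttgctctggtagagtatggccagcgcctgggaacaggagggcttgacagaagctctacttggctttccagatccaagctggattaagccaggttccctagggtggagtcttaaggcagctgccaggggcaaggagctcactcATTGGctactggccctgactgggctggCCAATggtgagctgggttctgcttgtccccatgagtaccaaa
Retn: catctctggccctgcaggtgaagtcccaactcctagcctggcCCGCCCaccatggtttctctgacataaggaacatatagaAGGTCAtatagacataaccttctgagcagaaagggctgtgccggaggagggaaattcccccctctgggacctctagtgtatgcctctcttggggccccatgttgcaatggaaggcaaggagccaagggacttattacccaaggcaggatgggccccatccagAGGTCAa
Cfd: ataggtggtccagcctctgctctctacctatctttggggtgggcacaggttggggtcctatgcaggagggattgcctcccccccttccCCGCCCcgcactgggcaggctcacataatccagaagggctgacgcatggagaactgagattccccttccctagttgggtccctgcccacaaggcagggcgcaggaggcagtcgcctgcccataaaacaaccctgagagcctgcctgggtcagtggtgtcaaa
Lep: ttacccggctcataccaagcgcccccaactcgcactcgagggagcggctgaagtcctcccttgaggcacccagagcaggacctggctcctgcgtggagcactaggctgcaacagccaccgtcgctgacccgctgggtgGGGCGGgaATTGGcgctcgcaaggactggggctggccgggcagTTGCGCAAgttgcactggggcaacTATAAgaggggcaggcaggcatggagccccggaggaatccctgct

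The single nuclear receptor element AGGTCA occurred in the Retn window, at 169 to 164 and at 7 to 2 bases before the start. It is found in 14.1% of 33469 RefSeq windows of the same length. The pair AGGTCANAGGTCA, which contains that element at each end and is the form read by PPARG with its partner RXR, was in none of the 4 windows and in 0.0508% of all windows. The palindrome TTGCGCAA, read by C/EBP factors, lay in the Lep window at 69 to 62 bases before the start, and 0.140% of all windows hold it. The TATA element TATAA was matched in the Lep window at 45 to 41 bases before the start, against 24.0% of all windows. The CCAAT element was matched in the Adipoq window at 42 to 38 and, on the other strand, at 69 to 65 bases, and on the other strand of the Lep window at 104 to 100 bases, against 34.0% of all windows. The GC box GGGCGG was matched once each in Lep, Retn and Cfd, against 30.5% of all windows. The E-box CACGTG, held by 5.59% of windows, was matched in none of the 4. A match describes letters and shows no binding, and the windows of Adipoq, Retn and Cfd had no motif of this set common to all 3.

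Adipoq, the hormone adiponectin, was at 248, 164 and 143 CPM in untreated replicates 1, 2 and 3. It was at 14.9, 61.0 and 65.5 CPM in treated replicates 1, 2 and 3. All 3 treated libraries lay below the untreated ones, and the lowest untreated value was 2.18 times the highest treated value. Treated replicate 1 was the lowest library, on 412 counts with an exact 95% Poisson interval of 373 to 454, which covers counting error only. The mean was 185 ± 55.8 CPM untreated and 47.1 ± 28.0 CPM treated (SD, n = 3 each). The log2 fold change, treated minus untreated, was -1.97 (SE 0.54, 95% interval -3.24 to -0.71), with an adjusted p of 0.99999 by edgeR's quasi-likelihood test with Benjamini-Hochberg adjustment over all genes. It thus missed the threshold of 0.05, although the interval for this gene taken alone excludes 0.

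Retn, the hormone resistin, was at 39.7, 26.7 and 22.5 CPM in untreated replicates 1, 2 and 3. It was at 4.06, 10.2 and 9.96 CPM in treated replicates 1, 2 and 3. The groups did not overlap, and the order of the libraries nearly repeated that of Adipoq, with untreated replicate 1 highest and treated replicate 1 lowest. The mean was 29.6 ± 8.95 CPM untreated and 8.09 ± 3.49 CPM treated (SD, n = 3 each). The log2 fold change was -1.87 (SE 0.40, 95% interval -2.82 to -0.93), and edgeR's adjusted p, 0.99999, missed the threshold. DESeq2 called Retn at an adjusted p of 0.0133, as one of 28 genes called lower, which is 0.146% of the genes to which it gave an adjusted p. DESeq2 did not call Adipoq (adjusted p = 0.0829) or Cfd (0.0997).

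Cfd, the protease adipsin, was at 550 CPM in untreated replicate 1, 361 CPM in untreated replicate 2 and 584 CPM in untreated replicate 3. It was at 177, 252 and 268 CPM in treated replicates 1, 2 and 3. The groups again did not overlap, but the gap was narrower, with the lowest untreated value 1.35 times the highest treated value. Untreated replicate 2, not untreated replicate 3, was the lowest untreated library, unlike in the other 3 genes. The mean was 498 ± 120 CPM untreated and 232 ± 48.6 CPM treated (SD, n = 3 each). The log2 fold change was -1.10 (SE 0.27, 95% interval -1.75 to -0.46), and edgeR's adjusted p, 0.99999, missed the threshold.

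Lep, the hormone leptin, was at 12.3, 4.79 and 3.07 CPM in untreated replicates 1, 2 and 3. It was at 0.218, 6.14 and 1.65 CPM in treated replicates 1, 2 and 3. The groups overlapped, because treated replicate 2 lay above untreated replicates 2 and 3. Treated replicate 1 rested on 6 counts, with an exact 95% Poisson interval of 2.20 to 13.1 counts, against 93 to 364 counts in the untreated libraries. The mean was 6.71 ± 4.89 CPM untreated and 2.67 ± 3.09 CPM treated (SD, n = 3 each). The log2 fold change was -1.33 (SE 1.03, 95% interval -3.74 to 1.08), with edgeR's adjusted p at 0.99999, and the interval holds both no difference and a larger one than that of Adipoq. The value was -2.83 without treated replicate 2, -1.68 without untreated replicate 3, -0.79 without treated replicate 1 and -0.56 without untreated replicate 1, and it missed the threshold in each of these fits.

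**Figure D1:**
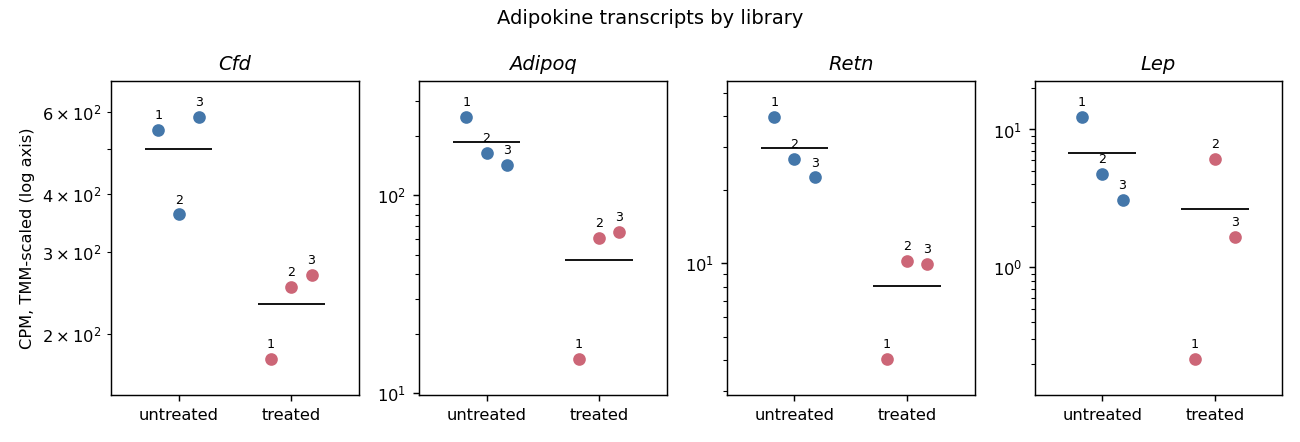
CPM of Cfd, Adipoq, Retn and Lep on log axes, 1 point per library labelled with its replicate number, with a line at the mean of each group of 3 libraries. Treated points lie below all untreated points in Cfd, Adipoq and Retn, and treated replicate 1 is the lowest library in each gene, down to 0.218 CPM in Lep.

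Of the 4 adipokines, 3 had every treated library below every untreated one, where 3.2% of all genes tested were lower in that way. The same 3 genes had an unadjusted p under 0.05 with lower treated values, at 0.00215 for Retn, 0.00477 for Cfd and 0.00752 for Adipoq by edgeR, against 1.34% of all genes tested. All 4 had a log2 fold change below 0, against 44.4% of all genes, whose median was 0.04. The 4 genes were chosen with earlier results of these data known, so these shares are a description and not a test. At the adjusted threshold edgeR called 0 of the 4 and 0 of 16522 genes (0%), and the smallest adjusted p of any gene was 0.925. Without the filter on low counts, with other size factors, without mitochondrial genes, by limma-voom and without any 1 library, 0 of the 4 were called. Less RNA per fat cell and fewer fat cells in the tissue cannot be told apart in these bulk samples. Nor was the part of other cell types in the adipokine levels, that of Cfd among them, tested.

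**Figure D2:**
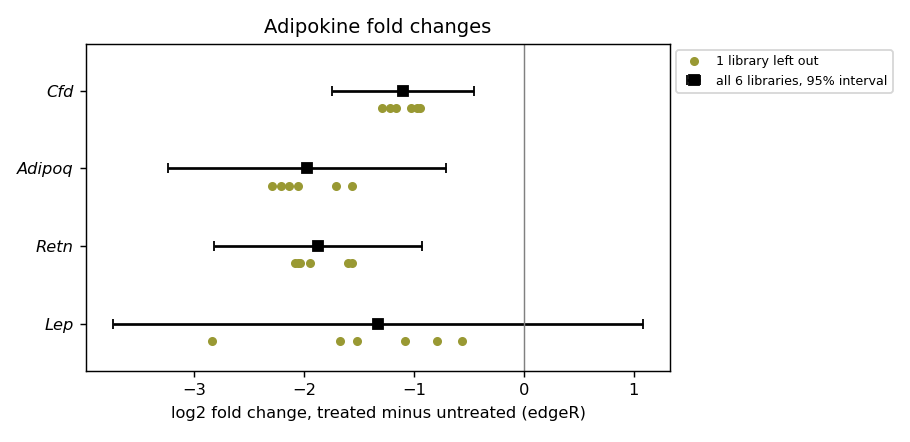
Log2 fold changes of Cfd, Adipoq, Retn and Lep (treated minus untreated, edgeR) with 95% intervals as bars, and, as small points, the values with 1 library left out. The intervals of Cfd, Adipoq and Retn end at -0.46, -0.71 and -0.93, while that of Lep reaches 1.08.

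The adipokines differed in how tightly they held together inside a library. The FPKM ratio of Adipoq to Retn was 4.45, 4.53 and 4.31 in untreated replicates 1, 2 and 3, against 2.58, 4.42 and 4.89 in the treated ones. The ratio was nearly constant in 5 libraries and lower in treated replicate 1. Its log2 value averaged 2.15 ± 0.04 untreated and 1.93 ± 0.50 treated (SD, n = 3 each), a difference within the spread of the treated libraries (two-sided exact permutation p = 0.8). The ratio of Cfd to Retn was 18.9, 18.7 and 33.9 untreated and 57.9, 34.9 and 37.9 treated. It was higher in every treated library than in any untreated one (exact permutation p = 0.1, the smallest that 3 against 3 allow, and 0.6 after Benjamini-Hochberg adjustment over the 6 pairs). The ratio of Cfd to Adipoq was 4.25, 4.12 and 7.86 untreated and 22.5, 7.89 and 7.75 treated, with overlapping groups and an exact permutation p of 0.2. Ratios to Lep varied most, from 161 to 3191 for Cfd, from 4.63 to 55.1 for Retn and from 20.5 to 142 for Adipoq, and gave exact permutation p-values of 0.7 to 0.9.

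The other genes of fat cells were read from the list of 12 without adipokines. Of these, 11 had a fold below 1 (44.4% of all genes tested), 8 had groups that did not overlap with treated lower (3.2% of all genes tested), and 0 passed the adjusted threshold by edgeR. DESeq2 called Pck1 and Gpd1 lower, as it did 0.146% of the genes to which it gave an adjusted p. The median log2 fold change of the 12 genes was -1.01, beside 0.04 for all genes. Their summed level was 1855 to 2747 CPM untreated and 1099 to 2628 CPM treated, to which Fabp4, the fatty acid binding protein, contributed most of any member on average, and no member was at 0. The differences were uneven within the list. Pck1, which makes phosphoenolpyruvate for glycerol synthesis, had the lowest log2 fold change, -3.37 (SE 0.74), and Gpd1, the glycerol phosphate dehydrogenase, had -2.65 (SE 0.63). The lipid droplet coat gene Plin1 had -1.98 (SE 0.64) and Cidec, which fuses droplets, -1.88 (SE 0.59), close to Adipoq and Retn. Pnpla2, the first lipase of triglyceride breakdown, had -0.90 (SE 0.26), close to Cfd. Fabp4 had 0.38 (SE 0.48) and Cebpa -0.12 (SE 0.27). In treated replicate 1 Fabp4 had its highest level, 2229 CPM, while Plin1 had its lowest, 7.91 CPM. The summed level therefore does not follow every gene of the list. The part of other cell types in the levels of Fabp4 and Cebpa was not tested.

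Each adipokine was then set against the mean log2 CPM of these 12 genes in the same library, a ratio that does not depend on how libraries are scaled. The mean of the 12 was 6.32, 6.47 and 6.55 in untreated replicates 1, 2 and 3, against 4.18, 5.63 and 5.21 in the treated ones, so treated replicate 1 was lowest here too. Relative to it Adipoq averaged 1.05 ± 0.53 untreated and 0.29 ± 0.54 treated on the log2 scale (SD, n = 3 each), a difference of -0.76 (two-sided exact permutation p = 0.2). Retn averaged -1.59 ± 0.54 untreated and -2.09 ± 0.19 treated, a difference of -0.50 (exact permutation p = 0.2). Cfd averaged 2.48 ± 0.40 untreated and 2.83 ± 0.47 treated, a difference of 0.35 (exact permutation p = 0.4). Lep averaged -3.93 ± 1.12 untreated and -4.47 ± 1.49 treated, a difference of -0.54 (exact permutation p = 0.7). Against this mean the groups overlapped in all 4, and 3 libraries against 3 allow no p below 0.1. The differences depend on the reference: against the median of the 12 genes in place of their mean they were -0.04 for Adipoq, 0.23 for Retn, 1.07 for Cfd and 0.19 for Lep. Against the median, every treated library lay above every untreated one in Cfd (exact permutation p = 0.1). The mean and the median give different values because the 12 genes themselves differed, from -2.53 for Pck1 to 1.85 for Fabp4 when each was set against the other 11.

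**Figure D3:**
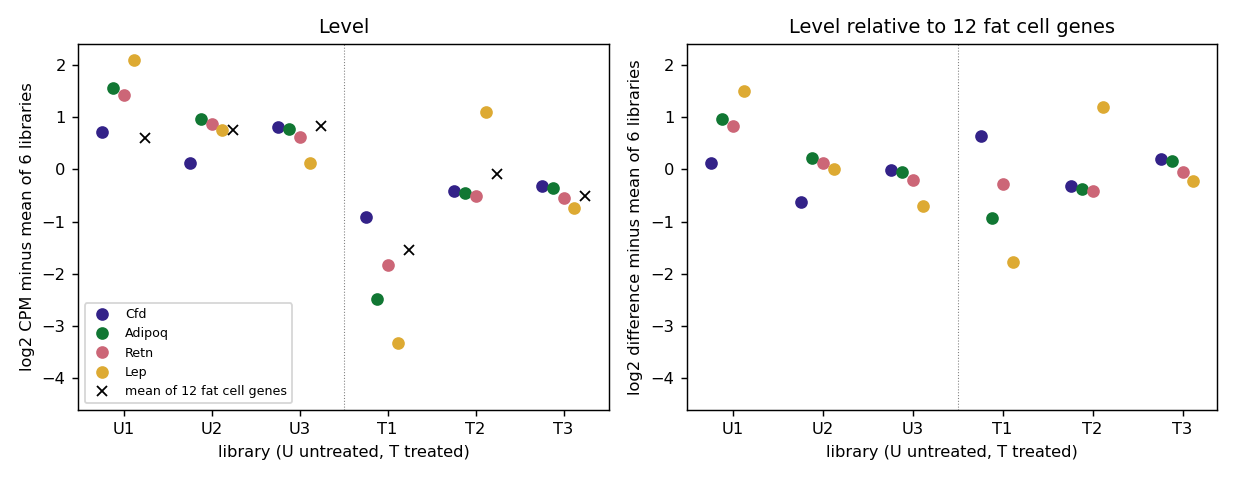
Left, log2 CPM of each adipokine and the mean of 12 fat cell genes, minus the mean over the 6 libraries; right, log2 CPM relative to the 12 genes, treated the same way (U untreated, T treated, with replicate numbers). On the left the treated libraries lie low except Lep in T2. On the right, against the mean of the 12 genes, the groups overlap in every gene.

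Genes with the most similar pattern were found among 10253 usual gene names with a mean of at least 5 CPM, by the root mean square difference in mean-centred log2 CPM over the 6 libraries. For Adipoq the 5 nearest were Tmem179 (0.24), Agt (0.26), Grifin (0.27), Tshr (0.29) and Retn (0.29). Agt encodes angiotensinogen and Tshr the receptor of thyrotropin. For Retn they were Agt (0.17), Tmem179 (0.23), Adipoq (0.29), Trarg1 (0.30) and the glycerol channel Aqp7 (0.33). Adipoq and Retn were therefore among each other's 5 nearest. For Cfd they were Islr (0.14), Gstz1 (0.21), Cilp (0.23), Calml3 (0.23) and Pamr1 (0.23), none of them on the fat cell list, while Retn came at place 1739 and Adipoq at place 8034. Seen from Retn, at the same distance of 0.58, Cfd came at place 29, since more genes lie near the narrower pattern of Cfd. For Lep the nearest were Rbp4 (0.59), Ces1d (0.64), Thrsp (0.68), Wnt5a (0.71) and Jchain (0.72), all at larger distances than for the other 3. Rbp4 encodes the retinol carrier of blood and Thrsp a protein of lipid synthesis.

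The genes that receive or process adiponectin showed no common direction. Of 8 measured, 3 had a fold below 1 and 5 above, 0 passed the adjusted threshold and 0 had an unadjusted p under 0.05 (edgeR), and DESeq2 called 0. Adipor1 averaged 221 ± 35.4 CPM untreated and 217 ± 9.91 CPM treated (SD, n = 3 each), which differ by -0.02 on the log2 scale (SE 0.19). Adipor2 had 0.10 (SE 0.31), and Cdh13, which encodes T-cadherin, had 0.06 (SE 0.42). Appl1, the adaptor that binds both receptors, had 0.44 (SE 0.23), with all treated above all untreated libraries, as in 2.47% of all genes.

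The leptin receptor gene Lepr was at 4.11, 3.63 and 2.12 CPM in untreated replicates 1, 2 and 3 and at 0.907, 14.8 and 3.45 CPM in treated replicates 1, 2 and 3. Treated replicate 2, the treated library with the highest Lep, also had the highest Lepr, and treated replicate 1 the lowest of both. The log2 fold change was 0.96 (SE 0.88). Of 8 genes of leptin reception, 3 had a fold below 1, 5 above, and 0 passed at an adjusted or unadjusted 0.05 (edgeR), or by DESeq2. Stat3, the factor that carries the signal to the nucleus, had 0.01 (SE 0.17), Jak2 -0.04 (SE 0.16), and the feedback inhibitor Socs3 0.07 (SE 0.31).

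Among relatives of resistin, Retnlg was at 3.34, 10.7 and 6.64 CPM in untreated replicates 1, 2 and 3 and at 1.31, 2.42 and 1.97 CPM in treated replicates 1, 2 and 3. The groups did not overlap, and the log2 fold change of -1.86 (SE 0.50) was about that of Retn, with edgeR's adjusted p at 0.99999. The library order was another one, with untreated replicate 2 highest in Retnlg and untreated replicate 1 in Retn. In mice Retnlg is known from neutrophils and bone marrow. The neutrophil list had a fold below 1 in 6 of 6 genes that passed the filter (44.4% of all genes tested). Its summed level was 40.7 to 74.2 CPM untreated and 9.05 to 33.2 CPM treated. Among the genes of this list, Mpo differed by -2.86 on the log2 scale (SE 0.64) and Csf3r -1.23 (SE 0.43). In both the groups did not overlap with treated lower, as in 3.2% of all genes tested, and DESeq2 called Mpo. Ngp, Camp, S100a9 and S100a8 had -1.33, -0.84, -1.10 and -0.77 with overlapping groups. Ltf did not pass the filter, and its counts were 7, 6 and 0 untreated against 58, 12 and 0 treated. The part of these cells in the result for Retnlg was not tested. Retnla had at most 5 counts and Retnlb had 0 counts in every library. The proposed resistin receptors Cap1 and Tlr4 both had log2 fold changes of 0.14 (SE 0.23 and 0.20).

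The macrophage list, which matters for resistin and complement, showed no common direction. Of 10 genes that passed the filter 6 had a fold below 1, the median log2 fold change was -0.09, and the summed level was 3594 to 4594 CPM untreated and 2827 to 5651 CPM treated. Cd163 and Mrc1, scavenger receptors of resident macrophages, had -0.67 (SE 0.43) and -0.26 (SE 0.26). Marco was the member that did not pass the filter, although it was not absent. Its count was 1059 for untreated replicate 2, 63 for treated replicate 2 and 0 for every other library.

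Of the alternative complement genes, the partners of adipsin, 7 of 10 had a fold below 1, 0 passed an adjusted or unadjusted 0.05 (edgeR), DESeq2 called 0, and the median log2 fold change was -0.17. Cfb, the substrate of adipsin, had -0.37 (SE 0.54), and C3, the central component, had -0.21 (SE 0.75). Properdin, encoded by Cfp and the stabiliser of the convertase, had -0.49 (SE 0.24). Masp1, whose product MASP-3 matures adipsin, had -0.89 (SE 0.48) at 3.77 CPM untreated and 2.03 CPM treated on average. Cfb, C3, Cfp and Masp1 each had overlapping groups, unlike Cfd.

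Among 19 other secreted factors of adipose tissue, 16 passed the filter, and their directions were mixed. A fold below 1 was found in 10 and above 1 in 6, and 0 passed the adjusted threshold. At an unadjusted p under 0.05 there were 3 lower and 1 higher by edgeR, against 1.34% lower and 0.587% higher of all genes tested, and DESeq2 called Agt. Agt stood at 54.4, 39.9 and 35.0 CPM in untreated aortas against 4.75, 15.2 and 11.5 CPM treated, the same library order as in Retn. Nrg4, a ligand of the ErbB4 receptor, differed by -1.81 on the log2 scale (SE 0.74) at 1.41 CPM untreated and 0.399 CPM treated. Ccl2, the monocyte chemokine, had -0.94 (SE 0.40). Sfrp5, an inhibitor of Wnt ligands, lay the other way at 17.1, 5.005 and 7.44 CPM in untreated aortas against 72.7, 18.8 and 23.7 CPM treated. Its difference on the log2 scale was 1.96 (SE 0.65), with groups that did not overlap. Itln1 had 0 counts in all 6 libraries, and Serpina12 and Il6 did not pass the filter.

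Among 9 transcription factors of fat cell formation, 5 had a fold below 1 and 0 passed the adjusted threshold. Srebf1, which drives lipid synthesis genes, was at 84.1, 82.2 and 112 CPM in untreated aortas against 52.2, 55.2 and 56.5 CPM treated, which differ by -0.76 on the log2 scale (SE 0.19). Its treated libraries were close together, and treated replicate 1 did not stand apart. Pparg, the main regulator of fat cell formation, had -0.43 (SE 0.22) with overlapping groups. Cebpd had 0.78 (SE 0.37) and Cebpb 0.92 (SE 0.57), both with overlapping groups too. Cebpb was at 877, 304 and 160 CPM in treated replicates 1, 2 and 3, against 201 to 271 CPM untreated. In the brown fat list 3 of 6 had a fold below 1. Its member Adrb3, an adrenergic receptor of fat cells and called by DESeq2, had -2.66 (SE 0.39), and Prdm16, Dio2 and Cidea had 0.68, -0.65 and 0.37.

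**Figure D4:**
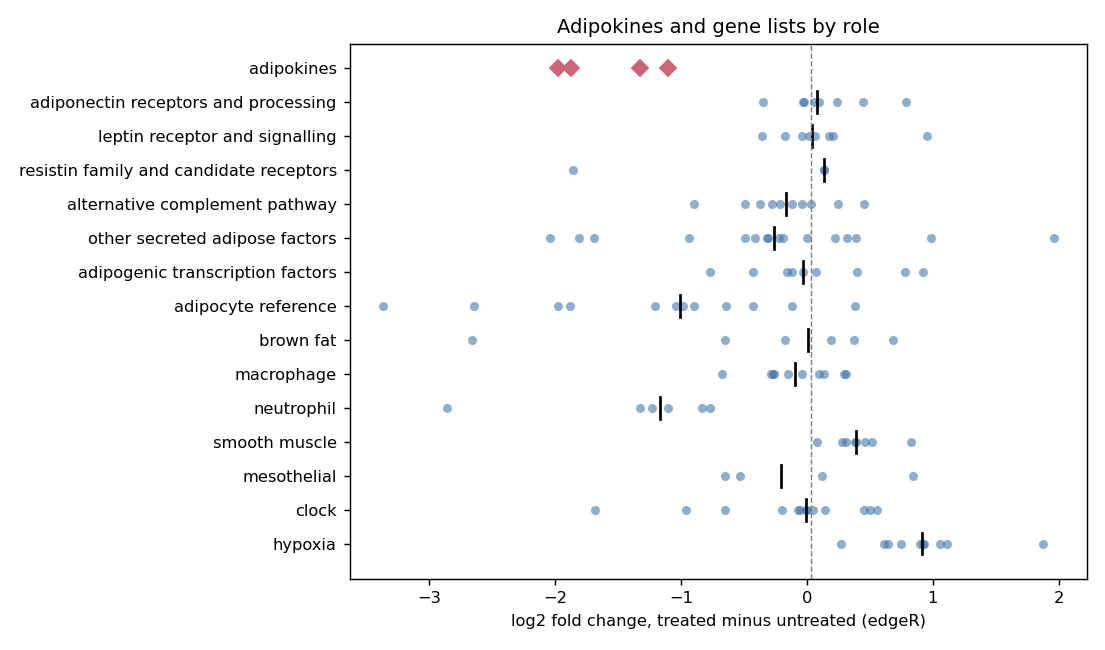
Log2 fold changes (treated minus untreated, edgeR) of the 4 adipokines, as diamonds, and of the genes of 14 lists by role, as points with the list median as a bar; the dashed line is the median of all genes, 0.04. The adipokines lie between -1.97 and -1.10, and the fat cell list has its median at -1.01. The lists of adiponectin, leptin and resistin receptors have medians of 0.08, 0.04 and 0.14, with Lepr at 0.96 and Retnlg at -1.86.

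Treated replicate 1, the lowest library in each of the 4 adipokines, stood apart in the hypoxia list as well. That list had a fold above 1 in 10 of 10 genes, with a summed level of 1005 to 1210 CPM untreated and 947 to 3997 CPM treated, the highest in treated replicate 1, and no member at 0. Slc2a1, a glucose transporter, was at 637 CPM there and at 48.6 to 80.8 CPM in the other 5 libraries. Adm, Pdk1 and Bnip3 stood at log2 fold changes of 0.93, 0.75 and 1.12. Bnip3 was at 224 CPM in treated replicate 1 and at 40.0 and 36.8 CPM in treated replicates 2 and 3, below the 45.0 to 47.5 CPM of the untreated libraries. Pdk1 was at 45.1 CPM in treated replicate 1 and at 16.001 and 15.5 CPM in the other treated libraries, against 14.4 to 15.7 CPM untreated. When treated replicate 1 was left out, the log2 fold changes of the adipokines were -1.56 for Adipoq, -1.56 for Retn, -0.95 for Cfd and -0.79 for Lep, and each missed the adjusted threshold (edgeR adjusted p = 0.974). The smooth muscle list had a fold above 1 in 8 of 8 genes with a median of 0.39. Of all genes tested, 44.4% had a fold below 1. In the smooth muscle list 0 genes had an unadjusted p under 0.05 (edgeR), and the groups overlapped in each. The summed level was 2806 to 3146 CPM untreated and 2492 to 5026 CPM treated, lowest in treated replicate 1. Myh11 was lowest there at 485 CPM, while Des was highest there at 459 CPM. The 4 genes of smallest p in this list, Lmod1, Tagln, Des and Myh11, stood at 0.83, 0.39, 0.38 and 0.52. The mesothelial list had a fold below 1 in 2 of 4, from 18.01 to 26.6 CPM summed untreated and 13.0 to 24.1 CPM treated. There Wt1, Msln, Krt19 and Upk1b had 0.84, -0.53, -0.65 and 0.12, and Upk3b had 0 counts in all libraries. The part of smooth muscle and mesothelial cells in the adipokine result was not tested.

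Many clock genes varied widely between libraries of the same group. Arntl, a core clock activator, was at 40.2, 9.83 and 8.16 CPM in untreated replicates 1, 2 and 3 and at 26.1, 6.18 and 25.95 CPM in treated replicates 1, 2 and 3. Untreated replicate 1 was the highest library in Arntl, Adipoq, Retn and Lep, while treated replicate 1 was high in Arntl and lowest in all 4 adipokines. Of 13 clock genes 7 had a fold below 1 and 0 had an unadjusted p under 0.05 (edgeR), or an adjusted one by DESeq2. Nr1d1, Cry1, Dbp and Per1 had log2 fold changes of -1.68, 0.50, -0.96 and 0.56, with SEs of 0.42 to 1.16. The part of clock gene differences in the adipokine levels was not tested.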

How the data were processed

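Total RNA of 6 libraries, 3 of untreated and 3 of NP-treated aneurysmal aortas, was analysed from 1 deposited table. The whole-number counts per gene were deposited by the authors without normalization, and FPKM values beside them are the authors' own, per the file headers. Reads were aligned with HISAT2 2.0.4 per the submitters' processing notes, and the series design text names SOAPnuke. No source used here states the counting tool, build, annotation or strand setting, so overlapping and antisense genes could share reads.

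Genes were filtered with filterByExpr at a minimum count of 10 and tested with edgeR 4.0.16 (R 4.3.3) with TMM normalization and no term but group. The quasi-likelihood test was adjusted by Benjamini-Hochberg over 16522 genes, with a threshold of 0.05. Standard errors and intervals derive from the F statistic. Log2 CPM used a prior count of 2. Single values were compared by two-sided exact permutation tests. The script was tested on simulated data. Alternatives were DESeq2 1.42.0, its size factors in edgeR, limma-voom (limma 3.58.1), limma on log2(FPKM + 1) and log2(FPKM + 0.1), no filter, no mitochondrial genes, a replicate block and leaving out each library.

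The members, and 15 lists of 141 entries, 1 matched through an older symbol and 128 kept by the filter, were chosen with earlier results of these data known. The lipid droplet list, 5 genes of the fat cell list, served as an alternative reference, and 5 of 5 had a fold below 1 (median log2 fold change -1.04). Named genes are the adipokines, their receptors and direct partners, up to 4 genes of smallest p per list, and the 5 nearest in pattern. Fabp4, Plin1, Cebpa, Stat3, Jak2, Socs3, Marco, Ltf, S100a8, S100a9 and the genes at or near 0 counts were added after their values were seen. Promoter windows come from RefSeq, GRCr8.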

Additional observations from a re-analysis of the deposited data

How the results depend on the processing

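All 14 alternatives kept the log2 fold changes of Adipoq, Retn, Cfd and Lep below 0. Leaving out 1 library gave -2.29 to -1.56 for Adipoq, -2.08 to -1.56 for Retn, -1.29 to -0.95 for Cfd and -2.83 to -0.56 for Lep, with 0 genes called in each of these fits (175 to 693 at an unadjusted p under 0.05). Beyond edgeR's 0, DESeq2 called 29 genes, among them Retn (log2 fold change -1.88, adjusted p = 0.0133, in a range up to 1 over its alternatives), limma on log2(FPKM + 1) called 1 and limma on log2(FPKM + 0.1) called 3, and the cause was not tested. limma-voom called 0 genes (333 at an unadjusted p under 0.05).

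Deviations of same-numbered libraries from their group means correlated at -0.17, 0.07 and -0.27, which shows no sign of pairing by number. With 3 libraries per group these correlations cannot settle whether the libraries were paired. With the replicate block 0 genes were called, and Adipoq, Retn, Cfd and Lep had -2.14, -1.92, -1.09 and -1.66.

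Relative to the mean of the 12 fat cell genes, leaving out 1 library gave -1.03 to -0.47 for Adipoq, -0.73 to -0.20 for Retn, 0.12 to 0.59 for Cfd and -1.27 to 0.22 for Lep. Against their median the values were -0.0366, 0.23 and 1.07 for Adipoq, Retn and Cfd, since single reference genes differed widely. The groups of Cfd then did not overlap, with treated higher (exact permutation p = 0.1). Counting error was largest for Lep, with 6 counts in treated replicate 1, although that library had the highest total count, 30939002. Lep also spread widely between libraries, at 6.71 ± 4.89 CPM untreated and 2.67 ± 3.09 CPM treated (SD, n = 3 each).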
